A study of Mus musculus with 6 samples.

Results

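The proximal T cell receptor kinases and adaptors examined here were *Lck*, *Fyn*, *Zap70*, *Prkcq*, *Lat*, *Lcp2*, *Sh2d2a*, *Themis* and *Rasgrp1*. They were taken by symbol, and all 9 were among the 21358 genes of the deposited expression table and among the 14172 genes tested. RNA-seq had been done on whole B16-F10 tumors, a mouse melanoma line grown in syngeneic C57BL/6 hosts, at day 12, with 3 tumors of ACT + IL-2 and 3 of ACT + NKTR-214. In both groups the mice carried tumors of at least 150 mm3, had been given 500 cGy of total body irradiation to deplete lymphocytes, and received adoptive cell transfer (ACT) of peptide-activated splenocytes from pmel-1 mice, whose CD8 T cells carry a transgenic T cell receptor for the melanoma antigen gp100. IL-2 was given intraperitoneally at 0.4 mg/kg in 3 doses per cycle of 9 days. NKTR-214, a form of IL-2 joined to releasable polyethylene glycol chains, was given intravenously at 0.8 mg/kg in 1 dose per cycle. The groups therefore differ in agent, dose, schedule and route together, and a tumor without transferred cells was not analysed here.

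When the T cell receptor binds its ligand, the Src family kinase Lck phosphorylates the CD3 and zeta chains of the receptor, and the kinase Zap70 docks on them and phosphorylates the adaptors LAT and Lcp2 (also called SLP-76). LAT and Lcp2 assemble the complex that activates phospholipase C gamma, whose product diacylglycerol recruits the Ras activator Rasgrp1 and the kinase encoded by *Prkcq*, PKC theta. These proteins take part in the response of a CD8 T cell to a tumor antigen. The comparison asked how far the transcripts of this machinery differed between tumors of the 2 treatments, and whether each differed by as much as *Cd3e*, the transcript of a receptor chain, in the same tumors.

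Each of the 9 transcripts was higher in ACT + NKTR-214 tumors, but by very different amounts. *Themis*, *Zap70*, *Lat*, *Sh2d2a*, *Lck* and *Rasgrp1* had group means 8.54 to 21.8 times as high, beside 14.7 times for *Cd3e*, whereas *Lcp2* was 3.54 times, *Fyn* 1.89 times and *Prkcq* 1.66 times as high. Without ACT + IL-2 replicate 1 these were 22.9 times for *Cd3e*, 9.99 to 31.7 times for the first 6 members, and 5.09, 2.01 and 1.72 times for the last 3. In whole tumors, fewer cells of a type and less RNA per cell cannot be told apart, so these are levels in tumor RNA and not per T cell.

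The sequences just upstream of the start sites are shown for *Lck* and *Zap70*, which differed strongly between the groups, and for *Fyn* and *Prkcq*, which differed least. *Lck* has 2 start sites in the RefSeq table, and both are shown, and of the 3 of *Zap70* the one furthest 5′ is shown. Each run is the 250 bases before a start site (GRCm38.p6, RefSeq), written 5′ to 3′ on the strand of the gene, and capitals mark matches on either strand to AGGAAG (ETS), TGTGGT (RUNX), CTTTGA (TCF/LEF) or CAGCTG (E-box).
Lck, start at the 5′ end of the gene: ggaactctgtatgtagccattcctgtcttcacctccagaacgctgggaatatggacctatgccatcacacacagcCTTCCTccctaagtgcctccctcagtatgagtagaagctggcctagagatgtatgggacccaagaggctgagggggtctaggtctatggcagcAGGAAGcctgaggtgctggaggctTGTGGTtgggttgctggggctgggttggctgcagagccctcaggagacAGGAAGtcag
Lck, start inside the gene: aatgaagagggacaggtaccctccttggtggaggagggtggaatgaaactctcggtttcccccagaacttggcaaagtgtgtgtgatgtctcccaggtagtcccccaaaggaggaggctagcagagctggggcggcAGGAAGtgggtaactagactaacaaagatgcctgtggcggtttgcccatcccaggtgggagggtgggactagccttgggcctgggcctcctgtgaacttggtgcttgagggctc
Zap70: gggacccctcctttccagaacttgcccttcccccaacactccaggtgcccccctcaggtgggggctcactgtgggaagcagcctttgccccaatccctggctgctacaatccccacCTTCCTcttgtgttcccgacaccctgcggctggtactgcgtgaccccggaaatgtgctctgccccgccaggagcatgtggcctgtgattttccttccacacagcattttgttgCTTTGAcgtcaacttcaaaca
Fyn: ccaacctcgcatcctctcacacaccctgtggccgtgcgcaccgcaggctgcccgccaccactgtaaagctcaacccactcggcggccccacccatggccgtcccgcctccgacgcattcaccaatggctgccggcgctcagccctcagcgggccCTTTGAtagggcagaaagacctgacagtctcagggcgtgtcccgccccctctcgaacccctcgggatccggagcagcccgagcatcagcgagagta
Prkcq: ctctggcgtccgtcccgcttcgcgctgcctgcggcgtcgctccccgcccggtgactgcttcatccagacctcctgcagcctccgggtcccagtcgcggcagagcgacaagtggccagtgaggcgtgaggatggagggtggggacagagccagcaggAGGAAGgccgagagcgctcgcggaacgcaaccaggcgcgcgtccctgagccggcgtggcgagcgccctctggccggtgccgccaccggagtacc
The *Lck* windows are chr4:129573642-129573891 and chr4:129558373-129558622 on the minus strand, the *Zap70* window shown is chr1:36761548-36761797, that of *Fyn* chr10:39369549-39369798 and that of *Prkcq* chr2:11172132-11172381, the last 3 on the plus strand. GC content was 56.4% and 58.0% in the *Lck* windows and 58.8% in the *Zap70* window shown, and 67.2% and 72.4% in those of *Fyn* and *Prkcq*, against a median of 52.4% over all 32851 RefSeq promoters of the same length. The RefSeq table held 8 of the 9 members, with 12 start sites, of which the 2 of *Themis* overlap. AGGAAG was present in 7 of the 12 windows and in 29.5% of all promoters, TGTGGT in 2 and 14.1%, CTTTGA in 3 and 13.8%, and CAGCTG in 1 and 13%. *Prkcq* and both *Lck* windows held AGGAAG and *Fyn* did not, so the match did not separate the members that differed most from those that differed least. Of the *Zap70* windows not shown, chr1:36764265-36764514 (GC 56.4%) held AGGAAG at 2 places and TGTGGT at 1, and chr1:36778734-36778983 (GC 57.6%) held 0 matches. A match is a run of letters and not a measured binding site.

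Values are FPKM, fragments per kilobase of exon at a fixed number of mapped fragments, a unit that divides by transcript length and so allows levels of different genes to be set side by side. The smallest steps between low values put the libraries at 20.9 to 24.7 M reads, with the shallowest at 0.877 and the deepest at 1.03 of ACT + IL-2 replicate 1. Counting the fewest whole reads that these steps allow, the 9 members rested on 21 to 1513 reads per tumor in ACT + IL-2 and 575 to 3018 in ACT + NKTR-214. The fewest, 21 reads of *Themis* in 1 ACT + IL-2 tumor, have an exact 95% Poisson interval of 13 to 32.1, which covers counting error only. For each member 2 times as many reads could be fitted as well, so these read numbers are lower limits. The melanocyte transcript *Tyrp1* was present at 1956 ± 272 and 930 ± 182 FPKM (SD, n = 3) in ACT + IL-2 and ACT + NKTR-214.

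The kinases come first. *Lck* (chr4:129548344-129573641, minus strand, GRCm38, GENCODE vM21) encodes the kinase that begins signalling by the receptor, and is bound to the CD4 and CD8 coreceptors. Its FPKM in the 3 ACT + IL-2 tumors was 5.04, 3.34 and 3.01, and in the 3 ACT + NKTR-214 tumors 42.2, 48.6 and 25.5. The lowest ACT + NKTR-214 tumor was 5.06 times the highest ACT + IL-2 tumor, and the means were 3.79 ± 1.09 and 38.8 ± 11.9 (SD, n = 3), a log2 fold change of 3.03 (SE 0.22, limma adjusted p = 1.03e-07). Log2 fold changes are of FPKM + 1 unless another scale is named, which understates the change of low transcripts.

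*Zap70* (chr1:36761798-36782818, plus strand) encodes the kinase that docks on the phosphorylated receptor chains. Its FPKM was 1.55, 0.977 and 0.929 in ACT + IL-2 and 18.6, 21.9 and 11.1 in ACT + NKTR-214 tumors. The groups did not overlap, and the nearest tumors of the groups differed 7.13 times. The means were 1.15 ± 0.347 and 17.2 ± 5.57 (log2 fold change 3.04, SE 0.21, adjusted p = 8.97e-08).

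*Fyn* (chr10:39368855-39565381, plus strand), the other Src family kinase associated with the receptor, is also made by many cell types outside the T lineage. Its FPKM was 17.2, 12.5 and 16.5 in ACT + IL-2 and 30.5, 33.6 and 23.2 in ACT + NKTR-214 tumors. The groups did not overlap, but the lowest ACT + NKTR-214 tumor was only 1.35 times the highest ACT + IL-2 tumor. The means of 15.4 ± 2.55 and 29.1 ± 5.33 gave a log2 fold change of 0.88 (SE 0.17, adjusted p = 0.000994).

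*Prkcq* (chr2:11172108-11301222, plus strand) encodes PKC theta, which links diacylglycerol to NF-kappa B. It stood at 12.5, 10.5 and 12.1 FPKM in ACT + IL-2 and at 21.5, 21.6 and 14.99 in ACT + NKTR-214 tumors. This was the narrowest separation of the 9, with the nearest tumors 1.20 times apart and means of 11.7 ± 1.09 and 19.4 ± 3.80 (log2 fold change 0.67, SE 0.16, adjusted p = 0.00551). Of the 50-base windows in its transcripts, 4.47% also occur in transcripts of other loci, so some of its reads may not have been assigned.

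**Figure D1:**
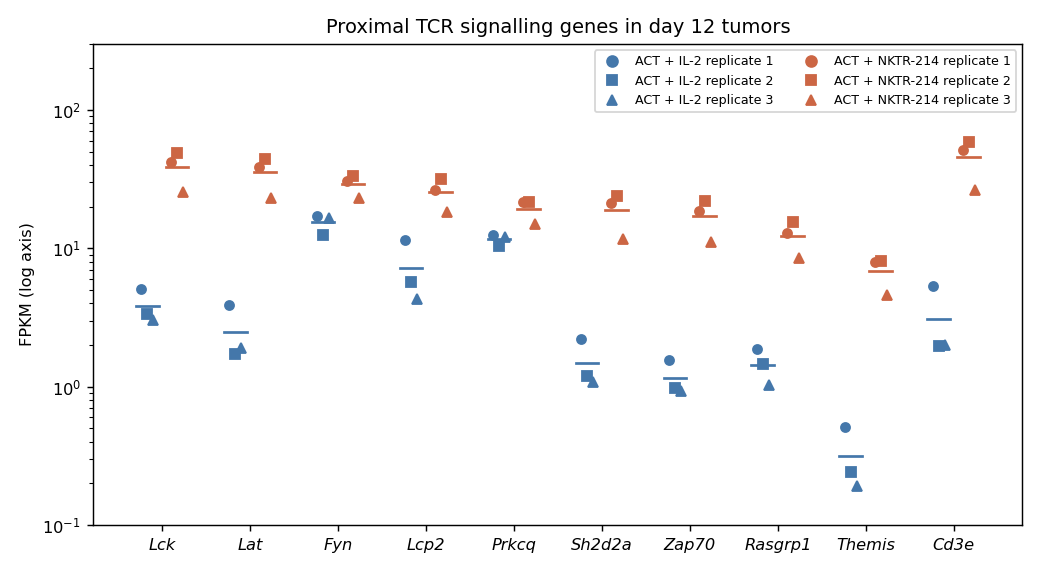
FPKM of each member and of *Cd3e* in the 6 tumors, with 1 point per tumor, colours for the 2 treatments and a log axis. *Fyn* and *Prkcq* sit above 10 FPKM in every ACT + IL-2 tumor, where *Zap70* and *Themis* are below 2 FPKM, and no member overlaps between the groups.

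Among the adaptors, *Lat* (chr7:126363824-126369570, minus strand), the membrane scaffold phosphorylated by Zap70, had 3.88, 1.71 and 1.91 FPKM in ACT + IL-2 and 38.8, 44.5 and 23.0 in ACT + NKTR-214 tumors. The groups lay 5.93 times apart at their nearest tumors. With means of 2.50 ± 1.20 and 35.4 ± 11.2, its log2 fold change of 3.38 was the highest of the 9 on this scale (SE 0.24, adjusted p = 1.03e-07).

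*Lcp2* (chr11:34046920-34092295, plus strand), whose product binds to LAT through another adaptor, is also made by myeloid cells, mast cells and platelets. Its FPKM was 11.6, 5.72 and 4.27 in ACT + IL-2 and 26.3, 31.5 and 18.4 in ACT + NKTR-214 tumors. The groups did not overlap, and ACT + IL-2 replicate 1 was well above the other two tumors of its group. The means were 7.18 ± 3.86 and 25.4 ± 6.60 (log2 fold change 1.76, SE 0.26, adjusted p = 9.04e-05). Of its exon bases, 6.32% are shared with a gene on the opposite strand, and whether strand was used in counting is not given in the sources used here.

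*Sh2d2a* (chr3:87846755-87855722, plus strand), which encodes the Lck-binding adaptor TSAd, had 2.20, 1.19 and 1.08 FPKM in ACT + IL-2 and 21.1, 23.7 and 11.6 in ACT + NKTR-214 tumors. It followed the pattern of *Lck* and *Lat*, with the nearest tumors 5.29 times apart. The means were 1.49 ± 0.618 and 18.8 ± 6.36 (log2 fold change 2.96, SE 0.23, adjusted p = 2.37e-07).

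*Themis* (chr10:28668360-28883818, plus strand), which encodes a protein of the T lineage that tunes receptor signals during thymic selection, was the least abundant of the 9 in both groups. Its FPKM was 0.512, 0.242 and 0.192 in ACT + IL-2 and 7.90, 8.08 and 4.62 in ACT + NKTR-214 tumors. It showed the widest gap of the 9 in ratio, 9.03 times between the nearest tumors and 21.8 times between the means of 0.315 ± 0.172 and 6.87 ± 1.95. Its log2 fold change was 2.56 (SE 0.18, adjusted p = 1.05e-07) with 1 FPKM added and 4.10 with 0.1 FPKM added.

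*Rasgrp1* (chr2:117279993-117343001, minus strand), the exchange factor that turns diacylglycerol into Ras activation, had 1.86, 1.45 and 1.02 FPKM in ACT + IL-2 and 12.99, 15.4 and 8.57 in ACT + NKTR-214 tumors. The nearest tumors were 4.60 times apart. The means were 1.44 ± 0.421 and 12.3 ± 3.46 (log2 fold change 2.43, SE 0.20, adjusted p = 3.89e-07).

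All 9 members passed the threshold of an adjusted p of 0.05 in the direction of ACT + NKTR-214, where 20.7% of all genes tested did, and all 9 had groups that did not overlap, as did 27.1% of all genes tested. Their median log2 fold change was 2.56, against 0.05 over all genes. An exact two-sided permutation test over the 6 tumors gave p = 0.1 for each member, the smallest value that 3 against 3 tumors allow. With each gene's own variance in place of limma's moderated variance, 0 of 9 members passed (adjusted p between 0.0516 and 0.10), although all 9 had an unadjusted p under 0.05. Quantile normalization moved the median of all genes to -0.10 and kept all 9 members higher, from 0.57 for *Prkcq* to 3.20 for *Lat*. Over all genes, 2940 were higher and 1173 lower, against 2669 and 4549 after quantile normalization and 3259 and 3709 after scaling to the 75th percentile.

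**Figure D2:**
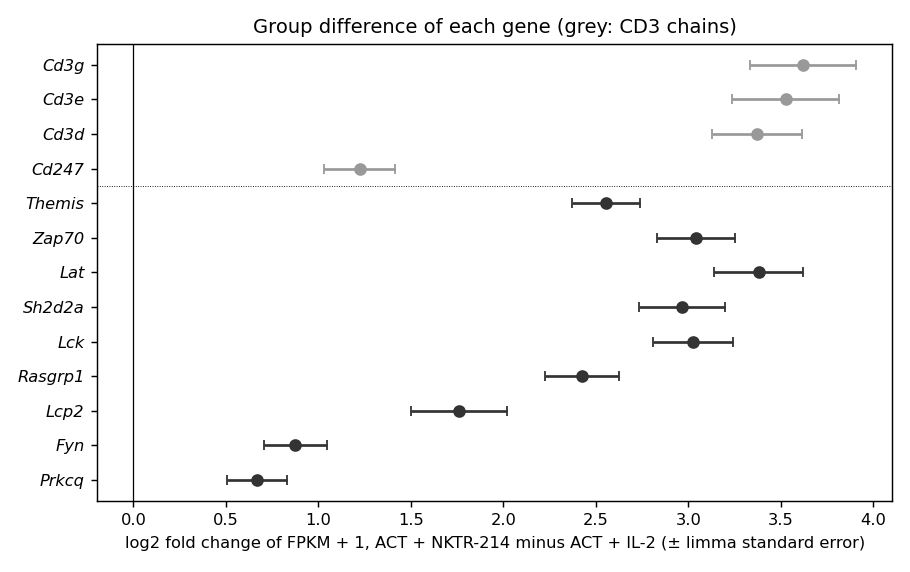
Log2 fold change of each member (ACT + NKTR-214 against ACT + IL-2, FPKM + 1) with its standard error, beside *Cd3e*, the members ordered by the ratio of group means. The 9 members run from 0.67 for *Prkcq* to 3.38 for *Lat*, and *Cd3e* is at 3.53.

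The order of the levels differed between the groups. In ACT + IL-2 tumors the means fell from *Fyn* through *Prkcq*, *Lcp2*, *Lck*, *Lat*, *Sh2d2a*, *Rasgrp1* and *Zap70* to *Themis*. In ACT + NKTR-214 tumors *Lck* and *Lat* stood first, followed by *Fyn*, *Lcp2*, *Prkcq*, *Sh2d2a*, *Zap70*, *Rasgrp1* and *Themis*. Neighbours in these orders had overlapping ranges, except *Zap70* above *Themis* in ACT + IL-2 and *Rasgrp1* above *Themis* in ACT + NKTR-214. Within a tumor, each neighbour was above the next in 3 of 3 tumors, except for *Sh2d2a* over *Rasgrp1* in ACT + IL-2 and for *Lat* over *Fyn* and *Prkcq* over *Sh2d2a* in ACT + NKTR-214, which held in 2 of 3.

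The tumors of a group did not carry the machinery at a common level. ACT + NKTR-214 replicate 2 was the highest and replicate 3 the lowest of its group for 9 of 9 members, and ACT + IL-2 replicate 1 was the highest of its group for 9 of 9. *Cd3e* in ACT + NKTR-214 replicate 3 was 0.453 of its level in replicate 2. The same ratio was 0.490 to 0.585 for 7 members, and 0.691 for *Fyn* and 0.693 for *Prkcq*. In ACT + IL-2, replicate 1 exceeded replicate 3 by 2.66 times for *Cd3e* and by 2.71 times for *Lcp2* and 2.67 times for *Themis*, but only by 1.04 times for both *Fyn* and *Prkcq*. The 2 kinases that differed least between treatments thus also varied least among tumors of a treatment.

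*Cd3e* (chr9:44998740-45009627, minus strand), the reference for the receptor itself, had 5.30, 1.97 and 1.99 FPKM in ACT + IL-2 and 51.7, 58.2 and 26.4 in ACT + NKTR-214 tumors. Its means were 3.09 ± 1.91 and 45.4 ± 16.8 (log2 fold change 3.53, SE 0.29, adjusted p = 3.64e-07). With no constant added, the mean log2 change was 3.97 for *Cd3e*, 4.53 for *Themis*, 3.88 for *Zap70*, 3.87 for *Lat*, 3.67 for *Sh2d2a*, 3.34 for *Lck*, 3.09 for *Rasgrp1*, 1.92 for *Lcp2*, 0.92 for *Fyn* and 0.71 for *Prkcq*.

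The ratio to *Cd3e* in each tumor separated the members. For *Fyn* this ratio of FPKM was 3.24, 6.32 and 8.26 in ACT + IL-2 and 0.591, 0.576 and 0.879 in ACT + NKTR-214 tumors. For *Prkcq* it was 2.37, 5.30 and 6.06 against 0.416, 0.371 and 0.568. Both kinases were thus more abundant than *Cd3e* in every ACT + IL-2 tumor and less abundant in every ACT + NKTR-214 tumor. The log2 ratio fell by 3.05 for *Fyn* (from 2.47 ± 0.69 to -0.58 ± 0.34). For *Prkcq* it fell by 3.25 (from 2.08 ± 0.73 to -1.17 ± 0.32).

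*Lcp2* crossed *Cd3e* in the same way, with ratios of 2.18, 2.90 and 2.14 in ACT + IL-2 and 0.508, 0.542 and 0.699 in ACT + NKTR-214 tumors, a fall by 2.05 on the log2 scale. *Rasgrp1* had a smaller difference of -0.87 (from -0.97 ± 0.53 to -1.84 ± 0.20), again without overlap of the groups. *Themis* alone had a higher ratio in ACT + NKTR-214 without overlap, with 0.0967, 0.123 and 0.0962 against 0.153, 0.139 and 0.175, a log2 difference of 0.57 with no constant added. On the scale with 0.1 FPKM added it was 0.19, and with 1 FPKM added its direction turned (-0.97, limma adjusted p = 0.0503). Each of these 5 differences had an exact permutation p of 0.1, the smallest possible. Over the 13953 tested genes above 0 in every tumor, the ratio to *Cd3e* was lower without overlap for 97.6% and higher without overlap for 0.158%, so a lower ratio without overlap was common to nearly all genes.

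The other members had ratios whose groups overlapped. *Zap70* had 0.293, 0.495 and 0.466 of the *Cd3e* level in ACT + IL-2 and 0.361, 0.376 and 0.420 in ACT + NKTR-214 tumors (log2 difference -0.08, exact permutation p = 0.8). *Lat* had 0.731, 0.868 and 0.959 against 0.751, 0.764 and 0.872 (-0.09, exact permutation p = 0.7). *Lck* had 0.951, 1.69 and 1.51 against 0.817, 0.834 and 0.966, a difference of -0.63, and *Sh2d2a* differed by -0.29, both with an exact permutation p of 0.2. Leaving out single tumors changed the size of these small differences, and for *Zap70* also the sign. For *Zap70* the difference was -0.32, with no overlap, without ACT + IL-2 replicate 1, 0.06 without replicate 2 and 0.01 without replicate 3 of that group, and for *Lat* it ran from -0.20 without ACT + IL-2 replicate 1 to -0.005 without replicate 3. Without ACT + IL-2 replicate 1 the groups no longer overlapped for *Lck* (-0.88) or *Sh2d2a* (-0.45). With 3 tumors a group these tests do not show that the ratios were equal.

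**Figure D3:**
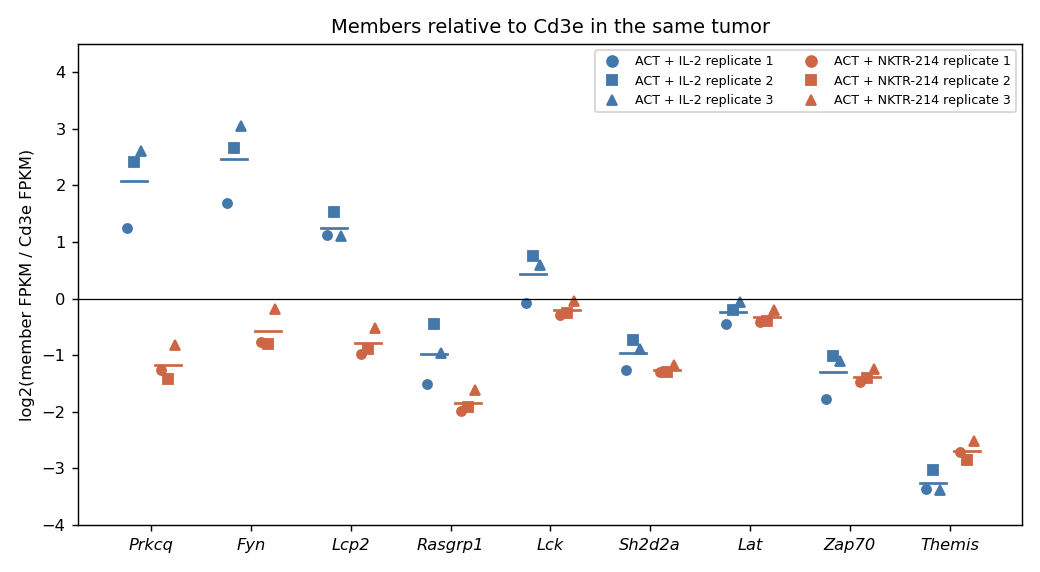
Log2 ratio of each member's FPKM to that of *Cd3e* in the same tumor, 1 point per tumor, with 0 meaning equal FPKM. *Fyn*, *Prkcq* and *Lcp2* lie above 0 in the ACT + IL-2 tumors and below 0 in the ACT + NKTR-214 tumors, while *Zap70* and *Lat* overlap between the groups.

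In a limma fit of log2(FPKM + 0.1) minus the *Cd3e* value of the same tumor, 3 of 9 members were lower relative to *Cd3e* (*Prkcq*, adjusted p = 3.34e-08, *Fyn*, 2.45e-07, and *Lcp2*, 0.000493) and 0 were higher, by adjusted or unadjusted p. Over all genes 98.3% were lower relative to *Cd3e* in this fit, with a median of -3.85, so that a lower ratio was the rule in these tumors. Every gene in that fit carries the same *Cd3e* values, which makes its variance estimate of 56684 degrees of freedom far too certain for 6 tumors. With each gene's own variance the adjusted p was 0.00347 for *Prkcq*, 0.00348 for *Fyn* and 0.00347 for *Lcp2*. *Rasgrp1* had an adjusted p of 0.105 in the moderated fit, 0.0480 with its own variance, 0.0242 with 1 FPKM added and 0.0171 without ACT + IL-2 replicate 1, over a range of 0.0171 to 0.444.

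The choice of reference chain mattered for the members near *Cd3e*. *Cd247*, which encodes the zeta chain that Zap70 binds, was 2.28 ± 0.502 and 6.78 ± 1.87 FPKM (log2 fold change 1.22, SE 0.19, adjusted p = 0.000166), a smaller difference than the 3.37 of *Cd3d* and the 3.62 of *Cd3g*. Against the mean of all 4 chains, the log2 ratio differed between the groups by 0.48 for *Zap70*, 0.47 for *Lat* and 0.27 for *Sh2d2a* (exact permutation p = 0.1 for each, the smallest possible), the opposite sign from *Cd3e* alone, and by -2.49 for *Fyn*, -2.69 for *Prkcq* and -1.49 for *Lcp2*, the same sign. The other members moved as well against this mean, *Lck* to -0.07 (exact permutation p = 0.8), *Rasgrp1* to -0.31 and *Themis* to 1.13. Against *Cd8a* and *Cd8b1* these differences were 0.01 for *Zap70*, -0.01 for *Lat*, -2.96 for *Fyn*, -3.16 for *Prkcq* and -1.96 for *Lcp2*.

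On the linear scale, the group means were also compared by their difference in FPKM, a share of the sequenced RNA and not an amount per tumor. The difference was 42.4 FPKM for *Cd3e*, 34.97 for *Lck* and 32.9 for *Lat*. *Lcp2* differed by 18.2, *Sh2d2a* by 17.3, *Zap70* by 16.1, *Fyn* by 13.7, *Rasgrp1* by 10.9, *Prkcq* by 7.68 and *Themis* by 6.55 FPKM. *Fyn* thus differed by 0.324 of the *Cd3e* difference and *Zap70* by 0.379, although their ratios of means were 1.89 and 14.9, since *Fyn* already stood at 15.4 FPKM in ACT + IL-2 tumors.

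The genes around the members were described by lists. Their counts stand beside the 20.7% of all 14172 genes tested that were higher and the 1173 that were lower. All 4 CD3 chains were higher, with a median log2 fold change of 3.45. All 8 coreceptors and accessory receptors were higher too (median 2.52), from *Cd4* at 0.64 to *Cd2* at 3.64, with the CD8 chains *Cd8b1* at 3.44 and *Cd8a* at 3.38 and the scavenger receptor family members *Cd6* and *Cd5* at 2.09 and 2.10.

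Of 22 other proximal signalling proteins, 15 were higher, 0 lower and 7 neither (median 1.45). The adaptor *Skap1* had a log2 fold change of 2.63, with 0.611 ± 0.231 and 9.41 ± 3.55 FPKM, and *Grap2*, which joins LAT to Lcp2, one of 2.40. The widely expressed *Sos1* (-0.31, adjusted p = 0.153) and *Nck1* (0.11, adjusted p = 0.640), and *Trat1* (0.07, adjusted p = 0.660), did not pass. *Sos1* was called lower after scaling to the 75th percentile (-0.40, adjusted p = 0.0136), after quantile normalization (-0.45, adjusted p = 0.00993) and without ACT + IL-2 replicate 2 (-0.39, adjusted p = 0.0491).

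Of 19 inhibitors of proximal signalling, 14 were higher, 0 lower and 5 neither (median 1.41). *Ptpn22*, a phosphatase acting on Lck and Zap70, was at 2.60 ± 1.42 and 25.05 ± 8.59 FPKM (log2 fold change 2.86), with *Dok2* at 2.71 and *Sla* at 2.34. *Csk*, the kinase that holds Lck inactive, was at 51.8 ± 5.998 and 48.9 ± 5.65 FPKM (-0.08, adjusted p = 0.736), and *Ubash3b* at 0.31 and *Cbl* at 0.32 did not pass either. *Csk* was called lower after both scalings (-0.19 each, adjusted p = 0.0347 for the 75th percentile and 0.0402 for quantile normalization). *Lck* was thus 0.0732 of the *Csk* level in ACT + IL-2 and 0.793 of it in ACT + NKTR-214 tumors, as ratios of group means. This contrast follows the difference of *Lck*, since *Csk* differed little. Both are levels in whole tumors, so the ratio is not that within a T cell.

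Of 14 genes known to be induced by receptor signalling, 10 were higher, 1 lower and 3 neither (median 1.74). *Il2ra*, the IL-2 receptor alpha chain, was at 0.655 ± 0.189 and 21.4 ± 2.74 FPKM (log2 fold change 3.76, adjusted p = 7.88e-10), ahead of *Cd69* at 2.47 and *Icos* at 2.07. Both treatments act on the IL-2 receptor, so T cell receptor signalling and the treatment itself cannot be told apart for *Il2ra*. *Nr4a3* was lower, at 30.3 ± 4.57 and 15.3 ± 4.41 FPKM (-0.97, adjusted p = 0.00118), and its relatives *Nr4a1* (-0.07, adjusted p = 0.846) and *Nr4a2* (0.14, adjusted p = 0.711) did not pass. In the fit with each gene's own variance *Nr4a3* did not pass either (adjusted p = 0.104).

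Of 19 genes listed as paralogs of the members, 18 could be tested, and *Blk* was too low. Among them 14 were higher, 2 lower and 2 neither, with a median of 0.93 that lay below the 2.56 of the members. *Prkch*, a protein kinase C of T cells and other cells, was highest at 2.20. It was followed by *Sh2d3c*, which shares an SH2 domain with *Sh2d2a* but is not a close relative, at 1.77. *Lat2*, the LAT relative of B and myeloid cells, was at 1.69. *Rasgrp3* was lower (21.9 ± 2.59 and 11.01 ± 3.00 FPKM, log2 fold change -0.95, adjusted p = 0.000768), opposite to *Rasgrp1*. In ACT + IL-2 tumors it stood above *Rasgrp1* (1.44 FPKM) and *Cd3e* (3.09 FPKM), and which cells made it was not tested. The Src family kinase *Yes1* was lower as well (5.11 ± 0.658 and 2.94 ± 0.558 FPKM, -0.64, adjusted p = 0.00754), opposite to *Lck* and *Fyn*. *Yes1* did not pass without ACT + NKTR-214 replicate 2 (-0.52, adjusted p = 0.0569). In the fit with each gene's own variance, neither *Rasgrp3* (adjusted p = 0.0864) nor *Yes1* (adjusted p = 0.0856) passed. *Prkce* stood at -0.15 (adjusted p = 0.496), and was called lower after both scalings (-0.24, adjusted p = 0.0362, for the 75th percentile and -0.31, adjusted p = 0.0176, for quantile normalization).

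**Figure D4:**
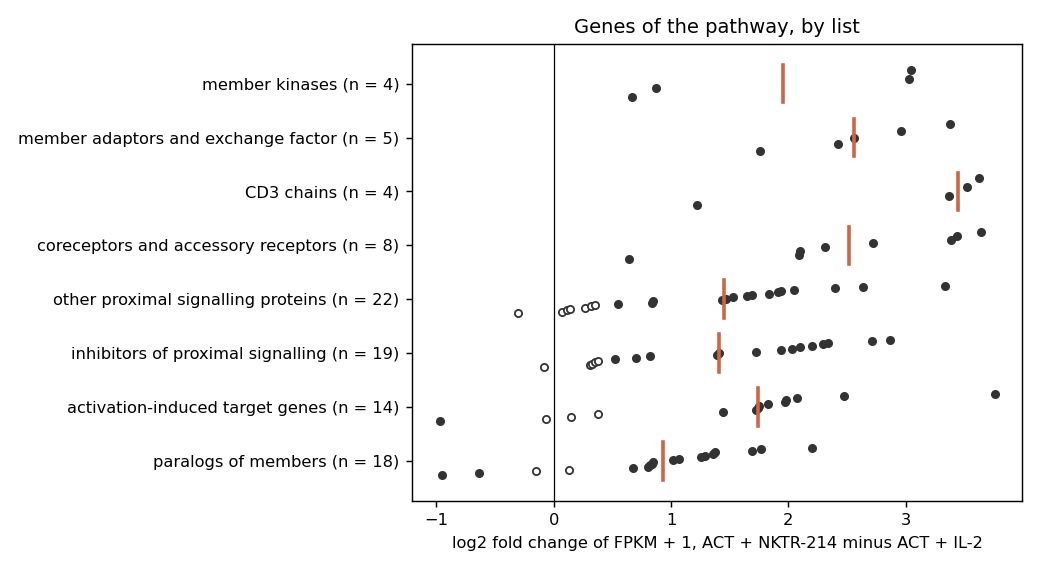
Log2 fold change of every tested gene in each list (1 point per gene, filled where the adjusted p is under 0.05, with a bar at the list's median). The medians run from 0.93 for the paralogs to 3.45 for the CD3 chains, and the filled points below 0 are *Nr4a3*, *Rasgrp3* and *Yes1*.

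Other cell types moved with the groups, and their part in the member differences was not tested. The sum of 9 T cell markers was 13.1 to 29.9 FPKM in ACT + IL-2 and 149 to 325 in ACT + NKTR-214 tumors, with 9 of 9 higher and *Cd3g* the most abundant. The sum of 5 macrophage and monocyte markers was 197 to 541 and 992 to 1791 FPKM, with 5 of 5 higher and *Lyz2* the most abundant. ACT + IL-2 replicate 1, the highest of its group for every member, was also the highest of its group for the summed markers of every cell type listed except melanocytes, with 29.9 FPKM for T cells, 541 for macrophages, 5.91 for NK cells, 2.01 for B cells, 6.17 for mast cells, 23.3 for platelets and 57.2 for endothelium. Likewise, ACT + NKTR-214 replicate 2, the highest of its group for every member, was the highest of its group for the T cell (325), macrophage (1791), NK cell (43.1), B cell (1.54), platelet (88.8) and endothelial (79.3) sums and the lowest for the melanocyte sum (2554). Replicate 3, the lowest for every member, was the lowest for the T cell, NK cell, macrophage and endothelial sums. The mast cell sum went the other way in this group, lowest in replicate 2 (0.943) and highest in replicate 3 (11.8). For NK cells, which also use *Lck*, *Fyn*, *Zap70* and *Lcp2*, 4 of 6 markers were higher, and the sums were 2.19 to 5.91 and 20.1 to 43.1 FPKM. *Klrk1*, which activated CD8 T cells also express, was the most abundant of them (log2 fold change 2.71). *Klre1* (2.77), *Klrb1c* (1.72) and *Eomes* (1.56) were higher too, and the paper reads *Eomes* in these tumors as a T cell gene. *Ncr1* (0.07, adjusted p = 0.799) and *Klra8* (0.01, adjusted p = 0.977) did not pass. By mass cytometry of tumors at a later day, the paper reported that IL-2 preferentially expanded NK cells. Whether NK cell numbers differed here was not tested. The NK cell markers other than *Klrk1* were named after their values were seen.

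Of 5 B cell markers 2 could be tested and 0 were higher, *Cd79b* was the most abundant, *Pax5* was at 0 in all 3 ACT + NKTR-214 tumors, and the sums were 0.890 to 2.01 and 0.960 to 1.54 FPKM. Mast cell markers summed to 1.04 to 6.17 and 0.943 to 11.8 FPKM, with 0 of 4 tested higher and *Tpsb2* the most abundant. Among 4 tested platelet markers, *Pf4*, the most abundant, was higher and the sums were 6.58 to 23.3 and 47.6 to 88.8 FPKM, nearly all of it *Pf4* (12.6 ± 8.17 and 63.1 ± 20.9 FPKM), and the other 3 did not pass. Endothelial markers summed to 25.3 to 57.2 and 39.6 to 79.3 FPKM, with 1 of 5 higher, *Pecam1*, the most abundant over all 6 tumors (in ACT + IL-2 alone *Cdh5* was above it). Melanocyte lineage markers summed to 5176 to 6627 and 2554 to 3615 FPKM, with 3 of 5 lower, so a smaller part of the RNA in ACT + NKTR-214 tumors came from pigment genes. *Ptprc*, the pan-leukocyte transcript, was at 7.57 to 17.7 and 40.5 to 74.6 FPKM (log2 fold change 2.36), so that 6 members differed by more than it did on this scale.

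The genes whose pattern over the 6 tumors was most like that of *Lck*, among 11549 compared, were *Tbx21*, *Dock2*, *Abcb9*, *Camk4* and *B4galnt1*. Their root mean square log2 difference from *Lck*, after centring each gene on its mean, was 0.05, 0.06, 0.09, 0.10 and 0.10. *Tbx21*, which encodes the transcription factor T-bet, went from a mean of 0.705 to 8.23 FPKM, and *Dock2* from 1.13 to 12.0 FPKM.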

How the data were processed

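RNA had been extracted from whole tumors and sequenced as single-end reads of 50 bases. The authors mapped the reads to GRCm38 with HISAT2 2.0.4, obtained read numbers for each gene from HTSeq, and deposited FPKM on a linear scale for each of 6 tumors. Each replicate is 1 tumor with its own library, and the study describes the replicates as biological.

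The tested genes had an FPKM of 0.1 or more on average over the 6 tumors. Their log2(FPKM + 1) values were compared between groups with limma 3.58.1 (eBayes with an intensity trend) in R 4.3.3, with Benjamini-Hochberg adjustment over all genes tested and a threshold of 0.05. The fit relative to *Cd3e* used log2(FPKM + 0.1). Single ratios were compared by exact two-sided permutation tests (Python 3.11.15, scipy 1.17.1). The fits were tested on simulated data. Read numbers are the fewest whole reads that the steps between FPKM values allow: 55.3% of 517 genes with 1 transcript gave the library total within 2%.

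The members, lists and tests were chosen with earlier results of these data known. The genes named are the members and *Cd3e*, the 3 highest and 3 lowest and every lower gene of each pathway list, the most abundant marker of each cell type over all tumors and markers at 0, and the 5 genes most like *Lck*. Some genes that this rule takes are not reported here. The alternatives were other pseudocounts, minimum values, scalings and variance estimates, a replicate block, other references for the ratio and each tumor left out. The mean of *Cd3d*, *Cd3e* and *Cd3g* as reference was added after the data were seen.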

Additional observations from a re-analysis of the deposited data

How the results depend on the processing

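All 9 members remained higher in ACT + NKTR-214 and past the threshold under a smaller pseudocount of 0.1 FPKM, a stricter filter (mean FPKM of 1) or none, both scalings, eBayes without the trend, the replicate block and each tumor left out, with log2 fold changes between 0.57 and 4.10 and adjusted p up to 0.0419. The exception was the fit with each gene's own variance, which called 0 of 9 members, 0 of the CD3 chains, 0 of the coreceptors and accessory receptors, 1 of the other proximal proteins, 0 of the inhibitors, 1 of the activation-induced genes and 0 of the paralogs, and 101 genes higher and 27 lower over all genes. Over all genes, 3709 were lower after scaling to the 75th percentile and 4549 after quantile normalization, against 1173. Leaving out a tumor gave 636 to 1996 genes lower (1996 without ACT + IL-2 replicate 2, 680 with ACT + NKTR-214 replicate 2 left out, and 636 when ACT + IL-2 replicate 3 was) and 2005 to 3476 higher. The cause of these changes was not tested. The replicate numbers are numbers of tumors treated differently, and the deviations of tumors with the same number correlated at -0.21, -0.07 and 0.40 over genes, so they do not pair the tumors. With the replicate block 9 of 9 members, 3090 genes higher and 1227 lower were called. The list medians of low transcripts depended on the pseudocount. With 0.1 FPKM added they were 3.40 for the coreceptors and accessory receptors, 2.00 for the inhibitors, 2.32 for the activation-induced genes and 1.38 for the paralogs. With 1 FPKM added they were 2.52, 1.41, 1.74 and 0.93. Between 3 and 4 members were lower relative to *Cd3e* under the alternatives run for that fit, which did not include the scalings, the 4th being *Rasgrp1*. The fitted change of *Themis* relative to *Cd3e* ran from -0.97, with a pseudocount of 1, to 0.76. Against the mean of *Cd3d*, *Cd3e* and *Cd3g*, the ratio differed between the groups by -3.11 for *Fyn*, -3.31 for *Prkcq* and -2.10 for *Lcp2*, and by 0.51 for *Themis*. Values resting on few reads, as for *Themis* in ACT + IL-2, are limited by counting as well as by the spread of 3 tumors.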
